A study of Mus musculus with 30 samples.

Results

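The genes described here encode the nuclear part of the mitochondrial respiratory chain, and were measured in mouse embryonic stem (ES) cells in which the level of the nuclear receptor Esrrb was set by doxycycline (DOX). They were chosen by symbol: every gene whose symbol begins with Nduf, Uqcr, Cox4 to Cox8 or Atp5, the 4 Sdh genes, Cyc1 and Cycs, with at least 100 exonic counts over all RNA-seq libraries. The pattern found 94 symbols, and 91 of them reached the minimum, out of 20300 genes in the exonic table. By symbol, 37 were grouped with complex I (Ndufa4 and Ndufa4l2 among them, although the former is now counted with complex IV), 7 with its assembly factors, 4 with complex II, 9 with complex III, 16 with complex IV and 15 with complex V, beside Cycs, the soluble cytochrome c. Atp5s and Atp5sl match the pattern but are not counted here as subunits. Cox8b (2 counts), Ndufs5 (5 counts) and Cox8c (48 counts) fell below the minimum, and Cox6a2 (255 counts) was the member nearest above it.

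All cells were ES cells of strain 129/Ola in serum medium with LIF. The RNA-seq, 18 libraries of a stranded poly(A) protocol, came from EKOiE-Ccna-Gfp cells, which lack endogenous Esrrb, carry a DOX-inducible Esrrb transgene and a Ccna2-Gfp reporter, and were sorted by that reporter into early G1, late G1 and G2. Each phase held 3 libraries with DOX and 3 taken 24 h after DOX withdrawal. The ChIP-seq of Esrrb, 12 libraries, used asynchronous cells (called interphase here) and mitotic cells from shake-off, 4 of each with DOX and 2 of each after 48 h of withdrawal, all from EKOiE except that number 2 in each DOX group was wild-type E14Tg2a. Exonic totals ran from 11.1 to 31.8 M counts (M, mega) and ChIP-seq totals from 10.7 to 67.5 M reads per library. Esrrb itself, the switched gene, was at 203 to 341 CPM (counts per M of the library size, which is the sum over the tested genes scaled by edgeR's TMM factor) in the 9 DOX libraries and at 140 to 195 in the 9 withdrawn ones. Withdrawn libraries thus still held counts for Esrrb. These counts do not tell transcripts of the transgene from any of the endogenous locus. The summed level of 8 ES cell markers was 3901 to 5129 CPM with DOX and 3480 to 4820 after withdrawal, against 31.5 to 45.5 and 30.6 to 46.1 CPM for 8 fibroblast markers. That of 7 primitive endoderm markers was 106 to 189 CPM with DOX and 117 to 229 after withdrawal, most of it Lama1. With the replicate block described below 1 of the 7 fell, Gata6 (−1.37 ± 0.28 for summed counts, edgeR adjusted p = 0.0143), where 5.02% of all genes fell. Gata6 was near the floor, at 0.294 to 1.98 CPM. None of the others was called: Sox17 (−0.59) and Gata4 (−0.51) lay below 0, and Sox7 (0.82), Dab2 (0.69), Foxa2 (0.54) and Lama1 (0.13) above it. Sox7 was at 0 in 2 libraries, and the part of such cells in the results below was not tested. The labels do not state separate cultures within a group, so p-values measure only the spread between these libraries. In bulk RNA, fewer cells of a kind and less RNA per cell cannot be told apart.

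The respiratory chain passes electrons from NADH (complex I) and succinate (complex II) through ubiquinone, complex III, cytochrome c and complex IV to oxygen, and complex V, the ATP synthase, uses the proton gradient that complexes I, III and IV build. A small core of the subunits is encoded by mitochondrial DNA and the rest by nuclear genes, of which those that passed the rule above are described here. Estrogen-related receptors, the family of Esrrb, bind the element TCAAGGTCA. Its relatives Esrra and Esrrg are known as activators of respiratory chain genes in heart and muscle, with Nrf1 and the ETS factor Gabpa as further activators of these promoters.

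Promoters are shown for members that differ in Esrrb binding and in motif content. Atp5k, Ndufs7 and Atp5l had a peak centre within 1 kb of the start, while Atp5g3 and Cycs had none. Windows of 250 bases before the RefSeq start and 50 after it (build GRCm38.p6) were found for 75 of the 91 members. Each was searched on both strands for TCAAGGTCA, for its core AAGGTCA (every TCAAGGTCA match also counts as a core match), for the Nrf1 core CGCATGCG and for the ETS element CCGGAAGT. The runs below are the 250 bases before the start, read 5′ to 3′ on the gene's strand, with motif matches in capitals, and a match is a description of letters, not a shown binding site. Atp5k lies at chr5:108434400-108434649 (minus strand), Ndufs7 at chr10:80249199-80249448 (plus), Atp5l at chr9:44920743-44920992 (minus), Atp5g3 at chr2:73911327-73911576 (minus) and Cycs at chr6:50566570-50566819 (minus).
Atp5k: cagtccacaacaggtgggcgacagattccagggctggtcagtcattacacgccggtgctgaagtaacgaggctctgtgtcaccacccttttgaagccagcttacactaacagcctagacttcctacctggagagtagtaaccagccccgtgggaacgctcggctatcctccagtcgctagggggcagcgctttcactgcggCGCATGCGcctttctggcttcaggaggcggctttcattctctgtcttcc
Ndufs7: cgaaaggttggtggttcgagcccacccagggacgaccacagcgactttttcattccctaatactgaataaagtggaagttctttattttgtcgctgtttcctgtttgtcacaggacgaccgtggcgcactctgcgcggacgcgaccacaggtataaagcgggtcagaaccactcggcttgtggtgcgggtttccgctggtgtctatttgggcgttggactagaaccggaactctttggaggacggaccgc
Atp5l: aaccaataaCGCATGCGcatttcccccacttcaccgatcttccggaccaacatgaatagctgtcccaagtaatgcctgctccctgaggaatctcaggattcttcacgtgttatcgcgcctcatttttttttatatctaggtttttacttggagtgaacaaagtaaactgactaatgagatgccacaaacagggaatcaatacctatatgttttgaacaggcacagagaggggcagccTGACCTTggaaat
Atp5g3: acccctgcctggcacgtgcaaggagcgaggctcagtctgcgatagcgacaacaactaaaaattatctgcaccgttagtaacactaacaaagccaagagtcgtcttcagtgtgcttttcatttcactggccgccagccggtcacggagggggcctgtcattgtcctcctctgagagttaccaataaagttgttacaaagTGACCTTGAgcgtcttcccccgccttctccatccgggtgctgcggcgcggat
Cycs: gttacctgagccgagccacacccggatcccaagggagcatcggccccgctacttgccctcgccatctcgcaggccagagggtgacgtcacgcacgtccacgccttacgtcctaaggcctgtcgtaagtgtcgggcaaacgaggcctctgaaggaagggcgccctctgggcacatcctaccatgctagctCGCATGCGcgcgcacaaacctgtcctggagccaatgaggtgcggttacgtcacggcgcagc
The Atp5k run holds 1 Nrf1 core, the Atp5l run an Nrf1 core and the reverse strand of the receptor core, the Atp5g3 run the reverse strand of the full TCAAGGTCA element, the Cycs run an Nrf1 core, and the Ndufs7 run none of the 4 motifs. Matches just after the start are shown as 30 bases for Atp5k (chr5:108434355-108434384, minus strand), which holds a core match, and for Sdhd (chr9:50603800-50603829, minus strand), which holds the full element on its reverse strand.
Atp5k: ccggcgcgAAGGTCAcggacaaaatggtgc
Sdhd: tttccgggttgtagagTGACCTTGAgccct

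The full TCAAGGTCA element was in 2 of the 75 member windows (2.67%), those of Atp5g3, a gene for the c subunit of the ATP synthase ring, and Sdhd, a membrane anchor of complex II. It was in 0.323% of the windows of 11158 other tested genes and in 0.466% of all 27025 genes with a window. The core AAGGTCA was in 7 member windows (9.33%, against 4.02% of the other tested genes and 5.38% of all genes), those of Atp5g3, Atp5k, Atp5l, Atp5e, Sdhd, Ndufb4 and Ndufb2. The Nrf1 core was in 12 (16%, against 3.99% and 2.07%), and the ETS element in 5 (6.67%, against 8.42% and 4.31%). Of the 23 members with both a window and a peak at the start, none held the full element, 3 held the core, 3 the Nrf1 core and none the ETS element. Of the 52 without such a peak the counts were 2, 4, 9 and 5. The peaks and the windows come from different builds and were not laid over each other, but only 2 of the 26 peak centres described next lay between 250 bp before and 50 bp after the start of the mm9 gene model.

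Esrrb peaks lay at the starts of respiratory chain genes more often than at those of other genes. A peak centre lay within 1 kb of the start in 26 of the 91 members (28.6%), against 1062 of 14001 other tested genes (7.59%) and 1189 of all 20300 genes (5.86%). The ATP synthase stood highest, with 10 of its 15 members: Atp5a1 and Atp5b of the catalytic head, Atp5c1 and Atp5d of the central stalk, Atp5o of the peripheral stalk, Atp5g1 of the membrane ring, and Atp5j, Atp5j2, Atp5k and Atp5l. Complex I had 9 of 37 (among them Ndufs7, Ndufs8 and Ndufv2 of the electron-transferring core, with Ndufa6, Ndufa9, Ndufa12, Ndufab1 and Ndufb4). Complex II had 1 of 4 (Sdhb), complex III 2 of 9 (Uqcr10 and Uqcrfs1) and complex IV 4 of 16 (Cox6c, Cox7a1, Cox7b and Cox7c). None of the 7 complex I assembly factors had one, nor had Cycs, Atp5s or Atp5sl.

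The share was also read on either side of the members' median RNA level, with levels not matched within each side. Among genes at or above the members' median mean level of 103 CPM, 15 of 46 members (32.6%) and 179 of 1928 other genes (9.28%) had a peak at the start, and below it 11 of 45 members (24.4%) and 883 of 12073 others (7.31%). At 5 kb the shares were 34.1% and 18.7%, and at 50 kb 69.2% and 60.8%, so that the gap in percentage points was widest at 1 kb. Genes were not compared by a test here, as the set was chosen with earlier results of these data known. Only 2 of the 26 peaks had the start of another gene within 1 kb of the peak centre (Kin beside Atp5c1 and Zmat5 beside Uqcr10).

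Within that kilobase the peaks beside respiratory chain genes tended to sit downstream of the start, inside the gene. Of the 26 centres, 16 (61.5%) were downstream, against 372 of 1062 (35.0%) in other genes. The bin 500 to 1000 bp downstream held the nearest peak of 12 members (13.2%), among them Atp5d, Atp5o, Atp5c1, Atp5j2, Uqcr10, Uqcrfs1, Ndufs8 and Cox7b, against 252 other genes (1.8%). The closest centres were those of Ndufs7, 21 bp upstream, and Atp5k, 72 bp downstream.

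**Figure D1:**
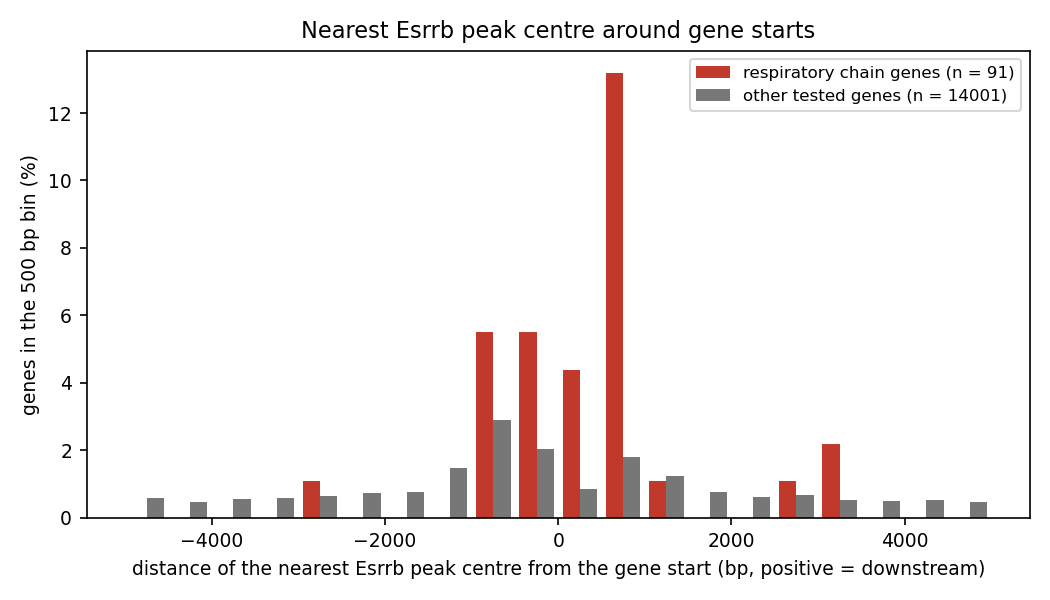
Share of genes (y axis, percent) whose nearest Esrrb peak centre falls in each 500 bp bin of distance from the gene start (x axis, bp, positive downstream), for 91 respiratory chain genes (red) and 14001 other tested genes (grey). The red bar at 500 to 1000 bp downstream reaches 13.2%, against 1.8% in grey.

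Peak heights, in log2 reads per kb per M reads, are given as examples for some start peaks and for the nearest peak of Cox7a2l. Withdrawn heights are not printed for all of them. At Atp5b (mm9 chr10:127518901-127520400, 712 bp before the gene for the catalytic beta subunit), interphase gave 0.91, 1.68, 1.65 and 2.24 and mitosis −0.15, 0.08, −0.15 and −0.02. Withdrawn libraries gave −2.99 and −0.92 in interphase and −1.99 and −1.20 in mitosis. Interphase and mitosis did not overlap at this peak. At Ndufb4 (chr16:37654501-37656150, 871 bp before the gene for an accessory subunit of complex I), interphase gave 1.91, 2.59, 1.93 and 2.01 and mitosis 2.35, 1.15, 0.81 and 1.64, and here the states overlapped through mitosis library 1. At Atp5k (chr5:108863101-108863550, at the start of a small membrane subunit of the ATP synthase), interphase gave −0.26, 0.75, 1.21 and 1.06 and mitosis −4.77, −0.68, −0.90 and −2.93, with no overlap and a wide spread in mitosis.

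At Sdhb (chr4:140517301-140517900, 415 bp inside the gene for the iron-sulfur subunit of complex II), interphase gave −0.44, 0.48, 0.72 and 2.13, mitosis −1.58, −0.48, −0.58 and −0.89, and the withdrawn libraries −4.15 and −3.60 in interphase and −3.63 and −2.28 in mitosis. Cox7a2l, the supercomplex assembly factor related to the Cox7a subunits, had its nearest peak 8177 bp before the start (chr17:83921101-83922600), at 1.98, 2.92, 2.27 and 3.17 in interphase, 0.21, 0.28, 0.07 and 0.09 in mitosis, and −1.41 and −0.46 in withdrawn interphase cells. Both peaks were lower in withdrawn interphase cells than in every interphase DOX library. Over the 26 peaks at member starts, the median height was 0.81, 1.66, 1.64 and 1.72 in the interphase DOX libraries, −0.15, 0.15, −0.24 and 0.20 in mitosis, −2.79 and −1.19 in withdrawn interphase and −2.35 and −1.15 in withdrawn mitosis. Every DOX library, mitotic ones included, was above every withdrawn library in that median.

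**Figure D2:**
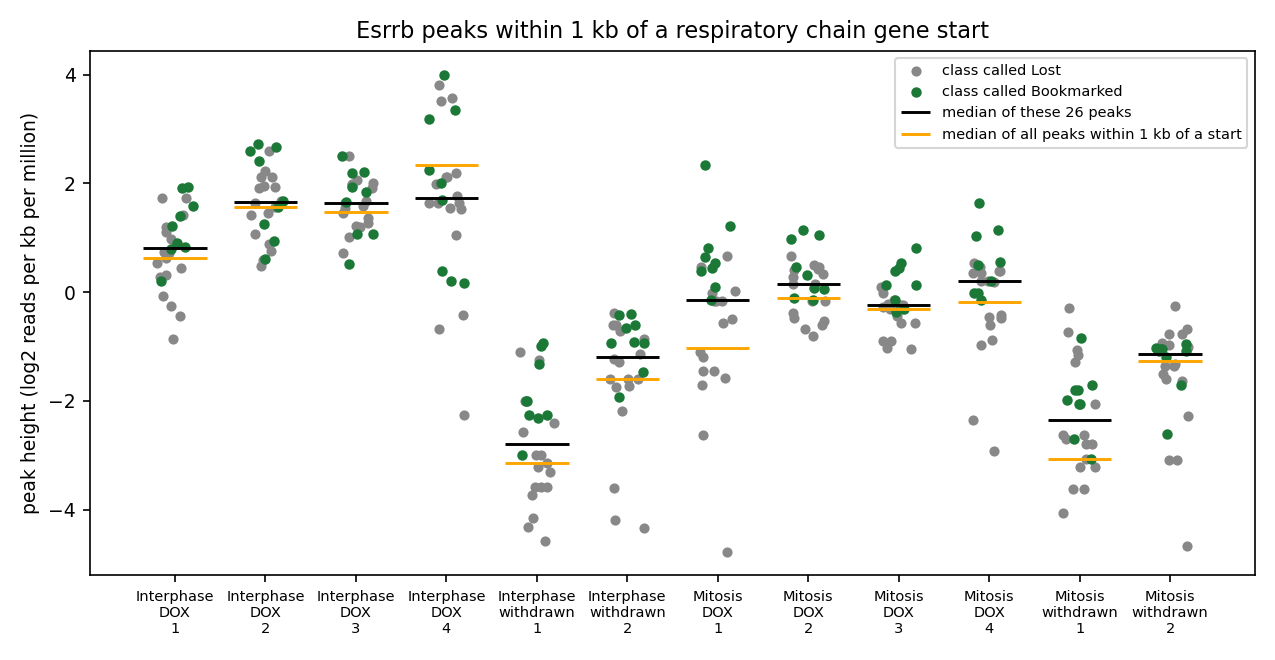
Height (y axis, log2 reads per kb per M reads) of the 26 Esrrb peaks within 1 kb of a respiratory chain gene start in each ChIP-seq library (x axis), with Bookmarked peaks in green and Lost peaks in grey. Black bars are the median of the 26 peaks and orange bars that of all 1163 peaks within 1 kb of any start; interphase DOX medians lie between 0.81 and 1.72, mitosis DOX medians between −0.24 and 0.20.

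The mitosis question, which peaks Esrrb holds through division, was asked with 1 limma fit over all 14559 peaks. Of the 62 peaks within 50 kb whose nearest start was a member's, 54 were lower in mitosis than in interphase with DOX at an adjusted p under 0.05 and none was higher, against 91.4% lower and 0.0481% higher over all peaks. At the starts, 21 of 26 were lower, with a median difference of −1.62, against −2.05 for all 1163 peaks at any start and −2.26 for all peaks. The 5 that did not pass were those of Ndufs7 (−1.28 ± 0.93, SE), Atp5a1 (−0.78 ± 0.52), Uqcrfs1 (−0.67 ± 0.55), Ndufb4 (−0.62 ± 0.43) and Atp5g1 (−0.33 ± 0.54). Not passing does not show that a peak was held through mitosis. The lowest difference at a member start was at Atp5k (−3.01 ± 0.94, limma adjusted p = 0.0055), followed by Cox7a1 (−2.54 ± 0.53). The Atp5k peak is short and held few reads in mitosis. Its heights in mitosis DOX libraries 1 and 4, −4.77 and −2.93, were the lowest of the 26 start peaks. The size of its loss is therefore uncertain.

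The authors' deposited table sorts peaks into classes called Bookmarked and Lost. It places 9 of the 26 start peaks (34.6%) in the Bookmarked classes, against 198 of 1163 at any start (17.0%) and 13.6% of all peaks, among them those of Ndufs8 and Ndufb4 of complex I, Uqcr10 of complex III, Cox7b of complex IV and Atp5a1, Atp5b, Atp5g1 and Atp5l of complex V. The classes rest on these same heights. Among the start peaks not called lower in mitosis above, those of Ndufs7 and Uqcrfs1 are Lost and those of Atp5a1, Ndufb4 and Atp5g1 Bookmarked. Among the 62 peaks within 50 kb, 19 (30.6%) were Bookmarked, those of Cox7a2l and Sdhd among them.

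After 48 h without DOX, all 62 peaks beside members were lower in interphase, 26 of 26 at the starts, against 99.6% lower and 0% higher over all peaks, so this share is that of the background. The median difference at the 26 starts was −3.56, against −3.74 over all peaks, and single peaks ran from −4.65 ± 1.15 at Atp5k to −1.74 ± 0.66 at Atp5g1. The value at Atp5k comes from the same short peak of few reads. In mitosis, 17 of the 62 peaks (27.4%) were lower after withdrawal than with DOX and none was higher, against 22.4% lower and 0% higher over all peaks. At the starts 9 of 26 were lower (34.6%, against 29.9% at any start), with a median difference of −1.73, against −1.59 at any start and −1.33 over all peaks. The interphase DOX libraries differed in depth, with number 4 the shallowest at 10.7 M reads, and that library gave the highest value at Sdhb, Atp5d and Ndufs8 and the lowest at Ndufs7, Cox7c and Uqcrfs1. Between 41 and 55 of the 62 peaks were lower in mitosis when single libraries, or both E14Tg2a libraries, were left out.

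The RNA question was whether respiratory chain transcripts follow Esrrb. After 24 h of DOX withdrawal most members lay slightly below their DOX level, but no member passed the test of the unblocked edgeR fit in any phase. The calls among all genes were 0.163% in early G1, 0.461% in late G1, 0.972% in G2 and 0.155% for counts summed over the 3 phases. At an unadjusted p under 0.05 there were 9, 12, 9 and 7 members, or 9.89%, 13.2%, 9.89% and 7.69%, against 9.63%, 13.1%, 14.4% and 14.0% of all genes. DESeq2 called no member in early and late G1, and Cox6a2 alone in G2 and for summed counts, against 3.09% and 3.6% of all genes.

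The median log2 change of the 91 members was −0.10 in early G1 (69 below 0), −0.07 in late G1 (66 below 0), −0.09 in G2 (65 below 0) and −0.08 for summed counts (66 below 0). The medians over all tested genes were 0.00, 0.00, −0.01 and 0.01, with 48.5% of genes below 0 for summed counts. The summed median stayed below 0 with DESeq2 (−0.08) and with upper-quartile scaling (−0.11), and was −0.12 with scaling by library totals, chosen after seeing the data, which shifted the median of all genes to −0.03. It was −0.02 without the DOX libraries numbered 1. Without 1 early G1 library it reached −0.04 (DOX 1) and −0.01 (withdrawn 3), and in G2 −0.01 without DOX 1. By complex, the summed medians were −0.08 for complex I, −0.04 for its assembly factors, −0.12 for complex II, −0.07 for complex III, −0.12 for complex IV and −0.03 for complex V.

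The level of the whole set, as the mean deviation of log2 CPM from each gene's own mean, shows the libraries behind these medians. The early G1 DOX libraries gave 0.11, −0.02 and −0.07 and the withdrawn ones −0.04, −0.04 and −0.22. In late G1 the values were 0.20, −0.04 and 0.03 against −0.02, 0.01 and −0.05, and in G2 0.18, 0.11 and −0.08 against 0.02, −0.04 and −0.05. The DOX libraries numbered 1 were the highest in each phase, and DOX and withdrawn libraries overlapped in every phase. The members together took 1.30% to 1.75% of the exonic counts of a library.

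**Figure D3:**
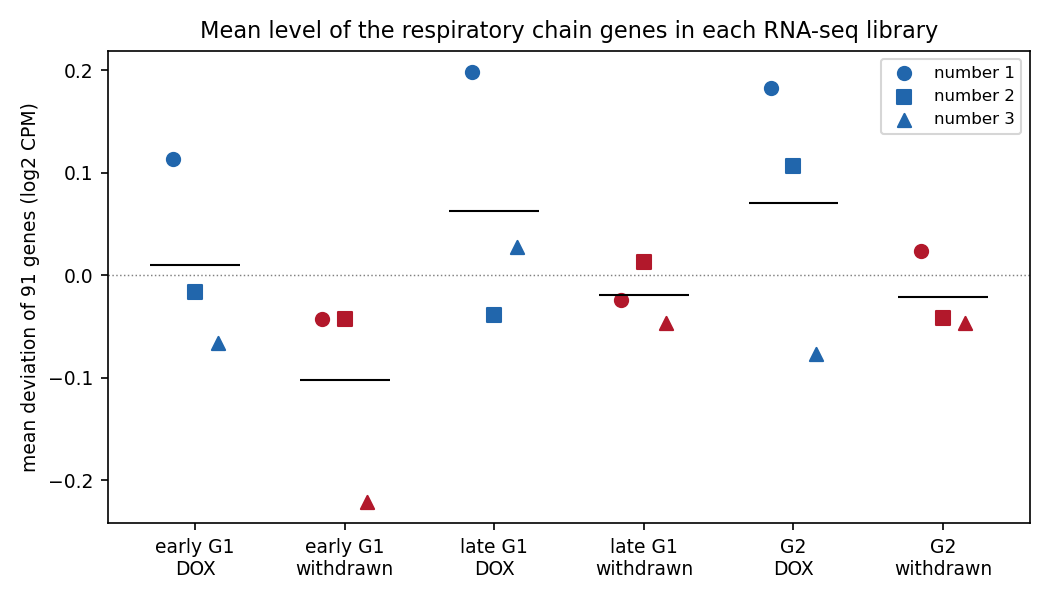
Mean deviation of the 91 respiratory chain genes from their own mean over all 18 libraries (y axis, log2 CPM) in each library by phase and DOX state (x axis, blue DOX, red withdrawn), with the group mean as a bar and the library number as the marker shape. The DOX libraries numbered 1 stand at 0.11, 0.20 and 0.18, and the early G1 withdrawn library 3 stands lowest at −0.22.

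DOX and withdrawn libraries numbered 1 and 3 deviated together in every phase (r 0.32 to 0.53), those numbered 2 only weakly (r 0.11 to 0.19). The fit with the replicate number as a block is given beside the one without it. With the block, 2 members fell in early G1, 6 in late G1, 5 in G2 and 5 for summed counts, and 1 rose in G2 and 1 for summed counts. The shares of all genes that fell with the block were 2.2%, 4.24%, 5.44% and 5.02%, and of those that rose 1.83%, 4.8%, 5.77% and 6.66%. Set against these, 2, 6, 5 and 5 of 91 members falling is near the background, and 0, 0, 1 and 1 rising is below it.

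**Figure D4:**
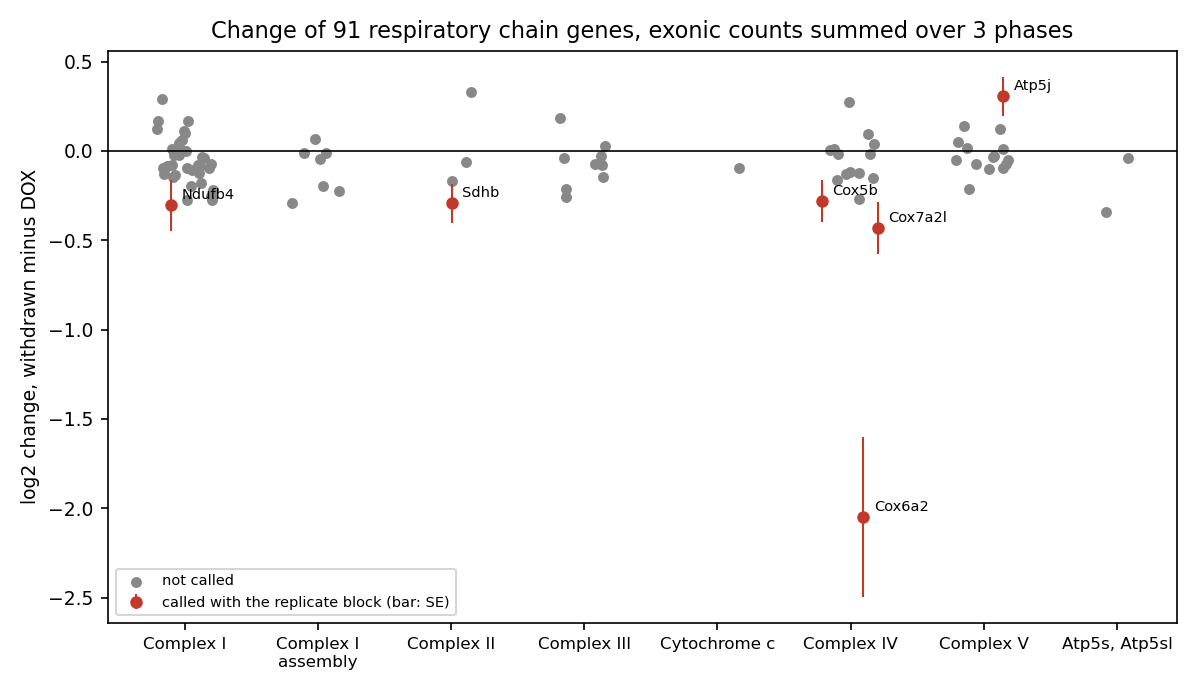
Fitted log2 change, withdrawn minus DOX, of exonic counts summed over the 3 phases (y axis, edgeR without the block) for each of the 91 genes by complex (x axis). Red points are genes called with the replicate block, with bars of 1 SE; Cox6a2 stands apart at −2.05 and the other genes lie between −0.43 and 0.33.

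Complex II, which oxidises succinate, held both of the members whose DOX and withdrawn libraries did not overlap in CPM over all phases, and they went opposite ways. Sdhb was at 123, 121 and 109 CPM in early G1 with DOX and at 100, 102 and 84.4 after withdrawal. In late G1 it was at 131, 124 and 124 against 93.3, 108 and 98.0, and in G2 at 136, 126 and 109 against 101, 105 and 98.3. All 9 withdrawn libraries were below all 9 DOX libraries. With the block Sdhb changed by −0.34 ± 0.08 in late G1 (adjusted p = 0.0211), −0.28 ± 0.08 in G2 (adjusted p = 0.0408) and −0.29 ± 0.08 for summed counts (adjusted p = 0.0465).

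Sdha, the flavoprotein that binds succinate and pairs with the Sdhb protein, was at 93.7, 125 and 114 CPM in early G1 with DOX and at 137, 133 and 132 after withdrawal. In late G1 it was at 105, 127 and 113 against 150, 139 and 142, and in G2 at 99.8, 125 and 115 against 156, 128 and 148. The 9 withdrawn libraries were above all 9 DOX libraries. With the block Sdha rose in G2 (0.35 ± 0.11, adjusted p = 0.045), while the summed change of 0.34 ± 0.10 had an adjusted p of 0.0577. Over all tested genes, 1.5% had all 9 withdrawn libraries below and 1.55% above the 9 DOX libraries, so that 1 member of 91 in each direction is close to that share. Per M of the library totals, without the TMM factor, Sdhb stayed separate (111 to 137 against 86.8 to 104), while Sdha overlapped (97.8 to 128 against 125 to 154) and its blocked G2 change of 0.31 ± 0.11 did not pass (edgeR adjusted p = 0.0848). The membrane anchors overlapped: Sdhc had DOX libraries of 81.5 to 99.6 CPM (median 91.8) and withdrawn ones of 70.9 to 91.3 (median 80.4), and Sdhd 125 to 174 (median 143) and 128 to 170 (median 140).

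**Figure D5:**
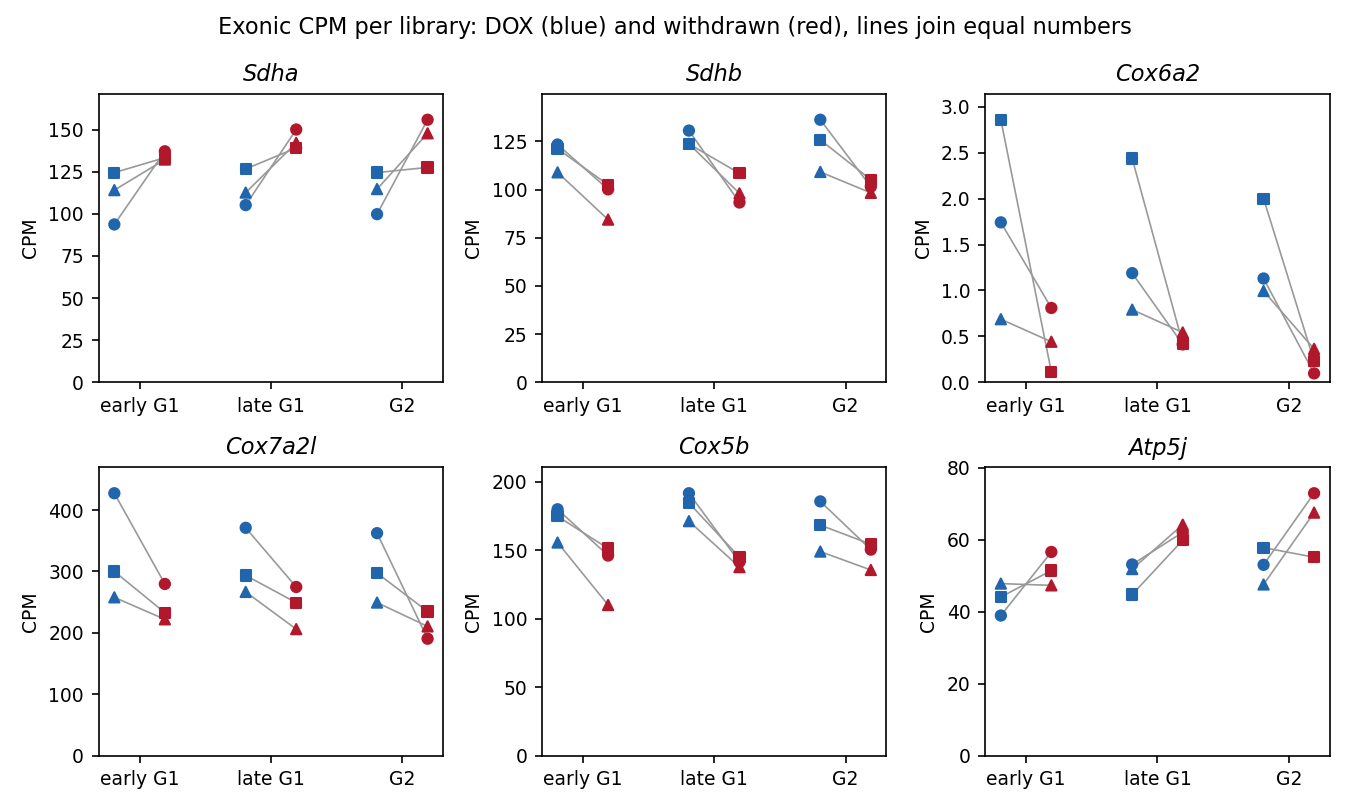
Exonic level (y axis, CPM) of 6 respiratory chain genes in each RNA-seq library by phase (x axis), with DOX in blue and after withdrawal in red, lines joining libraries of the same number. In CPM, Sdha is higher (not so per M of the library totals) and Sdhb lower in all 9 withdrawn libraries, while Atp5j, Cox5b, Cox7a2l and Cox6a2 overlap between the states over the 3 phases.

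Complex IV held the largest change of any member. Cox6a2, the heart and muscle isoform of the Cox6a subunit, was barely expressed, at 1.74, 2.86 and 0.686 CPM with DOX and 0.809, 0.111 and 0.440 after withdrawal in early G1, 1.19, 2.44 and 0.790 against 0.412, 0.421 and 0.542 in late G1, and 1.13, 2.00 and 0.993 against 0.0955, 0.229 and 0.363 in G2. These rest on 13 to 33 counts per DOX library and 2 to 15 per withdrawn library. In all, Cox6a2 had 188 counts with DOX and 67 after withdrawal. Only the DOX counts reach the minimum of 100 for a member by themselves. The gene thus entered the set through the state in which it was higher, and the size of its fall is uncertain. In late G1 and in G2 the states did not overlap, and in early G1 they did. The share of all genes whose 3 DOX and 3 withdrawn libraries separate within a phase is not given. Such separations, here and below, are therefore description only. With the block Cox6a2 fell in G2 (−2.60 ± 0.63, adjusted p = 0.0144) and for summed counts (−1.93 ± 0.40, adjusted p = 0.0153), and DESeq2 gave adjusted p = 0.00153 for summed counts. Of 7 heart and muscle markers, 1 changed with the block for summed counts, Ttn, which rose by 1.14, where 6.66% of all genes rose. Ckm (−0.69), Tnnt2 (−0.53) and Actc1 (−0.21) lay below 0, and Acta1 (0.13), Myh7 (0.04) and Myh6 (0.01) above it, none of them called. The summed level of the list, most of it Ttn and Acta1, was 204 to 587 CPM with DOX and 505 to 1234 after withdrawal. Tnnt2 and Ckm were at most at 1.01 and 1.65 CPM, and no marker of the list was at 0 in any library. The part of these genes in the change of Cox6a2 was not tested. The ubiquitous isoform Cox6a1 had DOX libraries of 170 to 203 CPM (median 188) and withdrawn ones of 148 to 180 (median 172), and did not pass.

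Cox7a2l was at 427, 300 and 258 CPM with DOX and 280, 233 and 222 after withdrawal in early G1, 371, 294 and 267 against 275, 249 and 206 in late G1, and 362, 297 and 249 against 190, 235 and 211 in G2. Each withdrawn library was below the DOX library of its number, and in G2 the states did not overlap. With the block it fell in G2 (−0.49 ± 0.12, adjusted p = 0.0183) and for summed counts (−0.41 ± 0.10, adjusted p = 0.0268). Cox5b, a nuclear-encoded subunit on the matrix side of complex IV, was at 180, 175 and 156 CPM with DOX and 146, 151 and 110 after withdrawal in early G1, 192, 185 and 171 against 141, 145 and 138 in late G1, and 186, 168 and 149 against 150, 154 and 136 in G2. It did not overlap in either G1 phase and overlapped in G2. With the block it fell in early G1 (−0.33 ± 0.08, adjusted p = 0.0338), late G1 (−0.37 ± 0.08, adjusted p = 0.0128) and for summed counts (−0.28 ± 0.08, adjusted p = 0.0486).

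The other isoform pairs of complex IV did not pass the test. Cox4i1, the general isoform of subunit 4, had DOX libraries of 442 to 561 CPM (median 509) and withdrawn ones of 384 to 481 (median 464). Its relative Cox4i2, known for its expression in lung and under low oxygen, was at 1.27 to 2.85 (median 1.78) and 1.14 to 3.36 (median 2.12). The muscle isoform Cox7a1 was at 3.00 to 6.87 (median 5.02) and 3.01 to 6.52 (median 3.83), and the general Cox7a2 at 113 to 155 (median 121) and 113 to 157 (median 132). The testis isoform Cox6b2 was at 3.88 to 11.2 (median 6.38) and 5.12 to 7.93 (median 6.14), the general Cox6b1 at 140 to 199 (median 164) and 130 to 199 (median 153), and Cox8a at 179 to 278 (median 194) and 163 to 231 (median 195). In each of these genes the DOX and withdrawn libraries overlapped. Of 5 testis and germ cell markers, Ddx4, Dazl and Sycp3 were above 0 in all 18 libraries, with medians of 11.8, 20.1 and 24.4 CPM, while Prm1 was at 0 in 17 libraries and Tnp1 in 11. The list summed to 45.5 to 66.0 CPM with DOX and 33.2 to 56.9 after withdrawal, and Dazl fell with the block for summed counts (−0.37 ± 0.10, edgeR adjusted p = 0.0421), where 5.02% of all genes fell. Sycp3 (−0.49) and Ddx4 (0.31) were not called. Their part in the level of Cox6b2 was not tested.

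In complex I, the members called with the block all fell. Ndufb9, an accessory subunit, was at 162, 129 and 111 CPM with DOX and 122, 114 and 84.3 after withdrawal in early G1, 160, 122 and 123 against 126, 116 and 93.2 in late G1, and 153, 140 and 111 against 132, 109 and 90.0 in G2. Each phase overlapped, but each withdrawn library was below the DOX library of its number. With the block its change was −0.33 ± 0.08 in early G1 (adjusted p = 0.0388), −0.28 ± 0.08 in late G1 (adjusted p = 0.0498) and −0.29 ± 0.08 in G2 (adjusted p = 0.0331). Ndufb4 was at 81.8, 61.1 and 61.1 against 62.9, 52.2 and 45.0 CPM in early G1, 81.3, 59.2 and 68.1 against 61.0, 59.7 and 50.8 in late G1, and 83.6, 73.7 and 55.5 against 62.3, 53.3 and 54.2 in G2. It overlapped in each phase, and fell for summed counts with the block (−0.30 ± 0.08, adjusted p = 0.0449).

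Ndufv1, which carries the flavin that accepts electrons from NADH, fell in late G1 with the block (−0.28 ± 0.08, adjusted p = 0.0417), and so did the accessory subunit Ndufa7 (−0.31 ± 0.09, adjusted p = 0.0418). Over all phases Ndufv1 had DOX libraries of 136 to 167 CPM and withdrawn ones of 121 to 150, and Ndufa7 193 to 252 and 167 to 213. The assembly factor Ndufaf3 fell in G2 (−0.53 ± 0.15, adjusted p = 0.0324), with 11.2 to 18.3 CPM in the DOX libraries of all phases and 9.55 to 14.4 in the withdrawn ones. The largest positive summed change in complex I was that of Ndufs6, a zinc-binding subunit, at 0.29 ± 0.16, which did not pass, with DOX libraries of 23.3 to 43.1 CPM and withdrawn ones of 34.6 to 50.9. Ndufa4, now counted with complex IV, was at 170 to 235 (median 192) and 153 to 236 (median 199) CPM, and its relative Ndufa4l2, known as a target of the hypoxia response, at 5.09 to 37.2 (median 16.2) and 5.85 to 36.9 (median 16.7). Among assembly factors the largest positive change was that of Ndufaf2 (0.07 ± 0.16).

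In complex III no member was called, with or without the block. The extremes of the summed changes were Uqcrfs1, the Rieske iron-sulfur protein (−0.26 ± 0.13, with DOX libraries of 111 to 168 CPM and withdrawn ones of 97.6 to 118), and Uqcrh, the hinge protein (0.18 ± 0.18, with 133 to 212 and 147 to 228). Cyc1, cytochrome c1, was at 121 to 154 (median 144) and 107 to 155 (median 137) CPM. Cycs, which carries electrons from there to complex IV, was at 239 to 368 (median 262) and 210 to 317 (median 253). None of these separated the DOX states.

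In complex V, Atp5j, coupling factor 6 of the peripheral stalk, was at 38.9, 44.1 and 47.8 CPM with DOX and 56.6, 51.4 and 47.3 after withdrawal in early G1, 53.1, 44.8 and 51.9 against 62.1, 59.9 and 64.2 in late G1, and 53.0, 57.8 and 47.6 against 72.9, 55.2 and 67.5 in G2. The states separated in late G1 alone, and Atp5j rose for summed counts with the block (0.30 ± 0.09, adjusted p = 0.0491), a call lost when libraries were scaled by their totals (0.26 ± 0.09, adjusted p = 0.0947). Of the 3 genes for the membrane ring, Atp5g2 fell in late G1 with the block (−0.26 ± 0.08, adjusted p = 0.0491). Its DOX libraries were at 211 to 275 CPM and its withdrawn ones at 184 to 222. Atp5g1 was at 208 to 271 and 167 to 254, and Atp5g3 at 138 to 163 and 136 to 185, and neither passed. Atp5b was at 3335 to 3868 with DOX and 2875 to 3864 after withdrawal. Atp5s, outside the complex, had the lowest summed change of the rest (−0.34 ± 0.20, with 2.98 to 7.73 and 2.41 to 4.53 CPM), and Atp5sl had −0.04 ± 0.11, neither of which passed.

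Counted over same-number pairs, 15 members (16.5%) were lower after withdrawal in 9 of 9 pairs, against 8.86% of all genes, and 2 (2.2%) were higher in 9 of 9, against 8.53%. Pairs of 1 number in different phases are not shown to be independent. Among the 15 were Sdhb, Cox4i1, Cox5b, Cox6a1, Cox6a2, Cox7a2l, Uqcrc1, Uqcrfs1, Ndufa7, Ndufb8, Ndufb9, Ndufs3, Ndufv1 and Atp5g2. The 2 that were higher in each pair were Sdha and Ndufv3, and Ndufs6 and Uqcrh were lower in 1 of 9. The mean of the 3 phase contrasts over 18 libraries, which treats the phases of 1 number as independent and so gives p-values that are too small, called 13 members lower and 2 higher (Sdha and Atp5j), against 8.47% lower and 8.43% higher among all genes. The 13 were Sdhb, Sdhc, Cox5b, Cox6a2, Cox7a2l, Uqcrc1, Uqcrfs1, Ndufa7, Ndufa12, Ndufb4, Ndufs3, Ndufv1 and Atp5g2.

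Intronic counts, which come largely from unspliced RNA, were tested for 88 members by phase and 89 for summed counts. None was called without the block in early G1, late G1 or G2 or for summed counts, against 0%, 0.0142%, 0.0142% and 0% of all genes. At an unadjusted p under 0.05 there were 11, 4, 11 and 8 members, or 12.5%, 4.55%, 12.5% and 8.99%, against 5.73%, 5.83%, 7.70% and 6.73% of all genes. DESeq2 called 1 member, Ndufa13 in G2, against 0.37% of all genes. With TMM scaling, the intronic medians were −0.16 in early G1 (71 of 88 below 0), −0.11 in late G1 (64), −0.11 in G2 (63) and −0.12 for summed counts (72 of 89, against 49.2% of all genes). For summed counts complex V had a median of −0.21, with 14 of 15 members below 0, and complexes II (4 of 4) and III (8 of 8) lay wholly below 0.  The sign of the intronic medians depended on the scaling. The 10 most abundant genes took 19.9% to 39.9% of a library's intronic counts, and TMM factors ran from 0.667 to 1.23. DESeq2 and upper-quartile scaling gave −0.16 and −0.18 in early G1, −0.10 and −0.10 in late G1, −0.10 and −0.12 in G2 and −0.12 and −0.13 for summed counts. Scaling by library totals, chosen after seeing the data, gave members 0.23 in early G1 (6 of 88 below 0), 0.03 in late G1 (42), −0.05 in G2 (56) and 0.07 for summed counts (30 of 89). It moved the median of all genes to 0.38, 0.14, 0.06 and 0.19. Relative to the median of all genes, members lay at −0.17, −0.10, −0.12 and −0.13 with TMM and at −0.15, −0.11, −0.11 and −0.13 with totals. As a share of a library's intronic counts, members took 0.180%, 0.205% and 0.293% with DOX and 0.255%, 0.268% and 0.281% after withdrawal in early G1, and the states overlapped in each phase.

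With the block no intron was called in late G1 (background 0.355% fell and 0.277% rose). In G2, where 0.675% of genes fell and 0.945% rose, Ndufc1 fell and Ndufa13 rose. Ndufc1, an accessory subunit, was at 9.77, 10.4 and 8.63 intronic CPM with DOX and 4.51, 7.14 and 5.67 after withdrawal (−0.76 ± 0.18, adjusted p = 0.0318). Ndufa13, also known as GRIM-19, was at 13.7, 14.2 and 13.0 against 19.5, 21.4 and 19.8 (0.57 ± 0.12, adjusted p = 0.0136). The states did not overlap for either, with no share of all genes to set beside this. Their exonic changes in G2 were −0.18 ± 0.13 and −0.02 ± 0.12, which did not pass. For summed counts, where 1.47% of genes fell and 2.01% rose, 3 members fell: Cycs, Sdhd and Ndufb8. With scaling by library totals none of these calls was kept, and the block then called 6 members higher in early G1 (Ndufa10, Ndufa13, Ndufaf2, Ndufs4, Ndufs6 and Ndufv3) and 4 for summed counts (Ndufa13, Ndufaf2, Ndufs4 and Ndufs6), named after their values were seen. The shares of all genes called at that setting are not given. Their median there was 0.38 in early G1 and 0.19 for summed counts.

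Cycs introns were at 17.4, 14.9 and 12.1 CPM with DOX and 9.94, 9.57 and 7.68 after withdrawal in early G1, 15.7, 13.7 and 12.1 against 11.2, 10.7 and 10.1 in late G1, and 15.7, 14.8 and 12.9 against 12.3, 12.1 and 8.33 in G2. The states did not overlap within any phase in CPM, but in late G1 they did per M of the library totals (14.8, 10.8 and 13.2 against 12.3, 9.57 and 11.5). The summed change was −0.49 ± 0.11 (blocked edgeR adjusted p = 0.0236) with TMM and −0.28 ± 0.16 (adjusted p = 0.238) with totals, beside an exonic one of −0.10 ± 0.16 that did not pass. Sdhd (−0.37 ± 0.10, adjusted p = 0.0498) and Ndufb8 (−0.39 ± 0.10, adjusted p = 0.0394) had exonic changes of −0.06 ± 0.13 and −0.22 ± 0.13, which did not pass. Conversely, the introns of Sdha stood at −0.01 ± 0.19, of Sdhb at −0.19 ± 0.12, of Atp5j at −0.11 ± 0.12, of Cox7a2l at −0.30 ± 0.13 and of Cox5b at −0.32 ± 0.20, none of them called. The difference between exonic and intronic changes was not tested.

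Peaks at the start and RNA change were set side by side. The 26 members with a peak within 1 kb had a median summed exonic change of −0.08, and the 65 without one −0.07. In introns both medians were −0.12. Of the 6 members called with the block for summed exonic counts, Sdhb, Ndufb4 and Atp5j had a peak within 1 kb, and Cox5b, Cox6a2 and Cox7a2l had none. The nearest centre to Cox6a2 was 60670 bp upstream, and that to Sdha 49112 bp upstream.

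Between phases, no member was called in any of the 6 contrasts, and 0% of all genes were. DESeq2 called none either. At an unadjusted p under 0.05 in edgeR, 2 members passed from early G1 to G2 in each DOX state (Atp5j and Ndufa5 with DOX, Atp5j and Ndufb10 after withdrawal, named after their values were seen) and none in the other 4. Most members lay a little higher in late G1 than in early G1, with a median of 0.07 with DOX (74 of 91 above 0) and 0.10 after withdrawal (78), and in G2 than in early G1 (0.07 with 75, and 0.09 with 77), against 0.00 and 0.01, and 0.00 and 0.00, over all genes. These contrasts share the early G1 libraries. The medians moved with single libraries. From early to late G1 the one with DOX was 0.00 without late G1 DOX 1 and 0.03 without early G1 DOX 3, and 0.12 without early G1 DOX 1, and the one after withdrawal was 0.02 without early G1 withdrawn 3 and 0.05 without late G1 withdrawn 2. From early G1 to G2 the median with DOX was 0.01 without G2 DOX 1, 0.04 without early G1 DOX 3, 0.13 without early G1 DOX 1 and 0.15 without G2 DOX 3, and the one after withdrawal was 0.03 without early G1 withdrawn 3 and 0.05 without G2 withdrawn 1. With scaling by library totals these 4 medians were 0.03, 0.03, 0.04 and 0.04. All 15 complex V members lay above 0 from early G1 to G2 in both states, some of them barely. The smallest changes were 0.017 (Atp5c1, with DOX) and 0.004 (Atp5f1, after withdrawal), and none was called. From late G1 to G2 the medians were 0.00 (47 and 49 of 91 above 0). No member passed the edgeR test for a difference in the response to withdrawal between phases (0% of all genes did), nor an unadjusted p under 0.05, and the median differences were 0.03 for late G1 minus early G1, 0.03 for G2 minus early G1 and 0.01 for G2 minus late G1.

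Other genes of the pathway were read from 2 lists. Of 36 assembly factors outside the symbol pattern, all tested, none was called for summed counts, while with the block Timmdc1, a complex I assembly factor, fell in late G1 (−0.43) and Uqcc1, a complex III one, in G2 (−0.32). With the block 4.24% of all genes fell in late G1 and 5.44% in G2. Of 22 regulators and carriers, 20 were tested, and with the block 1 fell and 2 rose for summed counts, against 5.02% and 6.66% of all genes. The ADP/ATP carriers went opposite ways: Slc25a4, the isoform of heart and muscle, fell (−0.32 ± 0.09, adjusted p = 0.0399) and Slc25a5 rose (0.34 ± 0.08, adjusted p = 0.0292). Pprc1, a coactivator related to PGC-1, rose (0.71 ± 0.14, adjusted p = 0.0138). Esrra (0.00 ± 0.10), Nrf1 (−0.10 ± 0.08), Gabpa (0.13 ± 0.08) and Tfam (−0.07 ± 0.08) were not called. A peak centre lay within 1 kb of the start in 6 of the 36 assembly factors (16.7%) and in 5 of the 20 regulators and carriers (25%). These shares stand against 28.6% of the members and 7.59% of the tested genes other than members.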

How the data were processed

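Raw counts over exons and over introns were deposited by RefSeq transcript, per the file headers, and the submitters' processing notes name Bowtie, CASAVA 1.8, DESeq2 and mm9 with no role. The peak table deposited by the authors holds 14559 mm9 peaks with log2 heights per library and no gene. Its values step in whole reads, which gave the depth, and columns headed noco were read as mitosis. The planned count test was replaced by limma 3.58.1 on these heights. All 18 RNA-seq libraries entered 1 edgeR 4.0.16 fit (R 4.3.3) of 6 groups with filterByExpr, TMM and quasi-likelihood tests, which left 14092 exonic and 14075 intronic genes, and a second fit of counts summed over phases 14847 and 14966, all Benjamini-Hochberg adjusted at 0.05 over all genes and run first on simulated data. ± is 1 SE. No source used here gives the strand setting of the counting or its treatment of near-identical copies, such as the processed pseudogenes of Cycs. Same-numbered DOX and withdrawn libraries had positively correlated deviations, weakly so for number 2 (exons: r 0.53, 0.19 and 0.32 in early G1, 0.44, 0.16 and 0.40 in late G1, 0.37, 0.11 and 0.37 in G2). The replicate block is therefore printed beside the fit without it. The pairing comes from the data, as the labels give the numbers alone. DESeq2 1.42.0, upper-quartile scaling, no filter, left-out libraries, scaling by library totals, the mean of phase contrasts and, for peaks, a 5 kb window and no trend were the alternatives. Promoters are from RefSeq, GRCm38.p6. The values of 1 member are not reported here by name. The members and lists were chosen with earlier results of these data known. Genes were named by isoform family, extreme change in each complex, carrier role, complex II or a peak at the start; levels per length were not used, as no exonic lengths were at hand, and members called with the block were named after their values were seen. Peak distance is from the peak centre to the start of the gene model in the exonic table.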

Additional observations from a re-analysis of the deposited data

Results flagged for a closer look

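In 4 of the 54 peak heights checked over groups of 4 ChIP-seq libraries, 1 library stood apart from the others by more than Dixon's 95% critical value for 4 values, where chance gives about 1 in 20 groups. Interphase DOX library 1 gave 0.28 at the Ndufa6 peak, against 1.54 to 1.68 in the other interphase DOX libraries, and 0.97 at the Atp5j2 peak, against 1.55 to 1.64. The same library gave 0.81 for the median of the 26 peaks at member starts, against 1.64 to 1.72. It was also the lowest interphase DOX library over all 14559 peaks, with a median of 0.84 against 1.38 to 2.32. Its low values were thus not particular to the peaks at member starts. Interphase DOX library 2, from E14Tg2a cells, gave 2.59 at the Ndufb4 peak, against 1.91 to 2.01 in the others.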

How the results depend on the processing

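No exonic or peak result changed direction where it was called. With the replicate block the members called were 2 in early G1, 6 in late G1, 6 in G2 and 6 for summed exonic counts, against 0 without it, and for introns 1 in early G1 (Cycs, where the numbers did not all pair, the lowest r being 0.09), 2 in G2 and 3 for summed counts. DESeq2 called 1 in G2 and 1 for summed counts in exons and 1 in G2 in introns. The mean of the 3 phase contrasts called 15 in exons and 5 in introns. With the block and scaling by library totals together, chosen after seeing the data, exons gave 5 members in early G1, 10 in late G1, 9 in G2 and 7 for summed counts, all lower, and introns 6 in early G1 and 4 for summed counts, all higher, and 0 in late G1 and G2. That scaling moved the median of all genes to −0.01, −0.04, −0.05 and −0.03 in exons. In introns it moved to 0.38 in early G1 and 0.19 for summed counts. The shares of all genes called at this setting are not given, so these counts are not set against a background. The same holds for the blocked early G1 introns and the intronic mean of phase contrasts. No other alternative, left-out libraries and scaling by totals without the block included, moved a count of 0. Within 5 kb in place of 50 kb, 35 of 41 peaks were lower in mitosis and 41 of 41 after withdrawal, as fewer peaks were tested. Leaving out libraries gave 41 to 55 and 60 to 62 peaks of 62, and the replicate block, whose numbers did not all pair (r 0.47, −0.31, 0.24 and 0.12), gave 58 lower in mitosis. Each group held few libraries, so changes near 0.1 on the log2 scale were not detectable for single genes at SEs of about 0.10 to 0.16.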
